A study of Homo sapiens with 4 samples.

Results

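H3K27Ac occupancy at 10 genes of the Polycomb repressive complexes was compared between control and SNDX-50469-treated MOLM13 cells. The genes were listed by name, as members of these complexes: EZH1, EZH2, EED, SUZ12 and JARID2 of Polycomb repressive complex 2 (PRC2), and BMI1, RING1, RNF2, CBX7 and CBX8 of Polycomb repressive complex 1 (PRC1). They are 10 of the 19121 protein-coding genes whose 5′ end could be placed. MOLM13 is an established human AML cell line with MLL1-r, and all samples came from this 1 line, grown in RPMI-1640 with 20% FBS. One library of H3K27Ac ChIPmentation, in which Tn5 adds sequencing adapters to immunoprecipitated DNA, was made per condition. The treated cells received 500 nM of SNDX-50469, an inhibitor of the interaction between Menin and MLL1, for 16 h. The control library carries no treatment in its own label, while the description of the treatment names DMSO as the other arm. The 2 matching input libraries were not analysed here.

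PRC2 places methyl groups on lysine 27 of histone H3, the same residue that carries the acetyl group of H3K27Ac, so that a given histone tail bears one mark or the other. EZH1 and EZH2 are its alternative catalytic subunits, EED binds the methyl mark, and SUZ12 holds the core together. JARID2 is an accessory subunit that binds nucleosomes and helps bring PRC2 to chromatin. PRC1 ubiquitinates histone H2A through the RING1 and RNF2 proteins (RING1A and RING1B), which pair with a PCGF protein such as BMI1, while the chromodomain proteins CBX7 and CBX8 bind methylated lysine 27. BMI1 is known for its role in self-renewal of hematopoietic and leukemia stem cells.

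The upstream sequences of 5 members are given because the results turn on their start sites, which stayed in a peak after treatment at EZH2, EED, JARID2 and BMI1 and were in no peak of either list at SUZ12. Each is the RefSeq sequence (GRCh38.p14) of the 250 bases before the outermost annotated 5′ end, 5′ to 3′ in the direction of transcription, with every CpG in capitals. The stretches are chr7:148884292-148884541 (minus strand, EZH2), chr11:86244503-86244752 (plus strand, EED), chr17:31936757-31937006 (plus strand, SUZ12), chr6:15245819-15246068 (plus strand, JARID2) and chr10:22320849-22321098 (plus strand, BMI1).
EZH2: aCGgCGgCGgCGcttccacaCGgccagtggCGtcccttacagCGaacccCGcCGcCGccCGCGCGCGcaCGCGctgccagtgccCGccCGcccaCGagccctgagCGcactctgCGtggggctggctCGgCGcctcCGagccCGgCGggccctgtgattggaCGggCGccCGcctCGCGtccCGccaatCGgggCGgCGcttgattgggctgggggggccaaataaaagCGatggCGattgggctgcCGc
EED: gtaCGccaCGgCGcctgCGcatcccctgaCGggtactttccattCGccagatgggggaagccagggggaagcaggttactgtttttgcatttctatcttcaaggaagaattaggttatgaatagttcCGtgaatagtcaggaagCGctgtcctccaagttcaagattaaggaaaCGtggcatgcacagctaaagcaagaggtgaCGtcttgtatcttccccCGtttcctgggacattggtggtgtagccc
SUZ12: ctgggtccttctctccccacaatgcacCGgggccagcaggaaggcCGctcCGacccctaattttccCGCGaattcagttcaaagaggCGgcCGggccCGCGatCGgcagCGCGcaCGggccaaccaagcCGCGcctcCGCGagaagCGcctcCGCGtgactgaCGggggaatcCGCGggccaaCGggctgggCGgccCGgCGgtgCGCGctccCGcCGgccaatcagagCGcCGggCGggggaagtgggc
JARID2: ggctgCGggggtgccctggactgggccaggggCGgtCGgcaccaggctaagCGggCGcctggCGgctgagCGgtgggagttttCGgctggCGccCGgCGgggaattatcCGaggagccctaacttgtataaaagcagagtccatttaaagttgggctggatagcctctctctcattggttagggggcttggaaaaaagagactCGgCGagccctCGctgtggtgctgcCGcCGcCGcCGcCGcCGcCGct
BMI1: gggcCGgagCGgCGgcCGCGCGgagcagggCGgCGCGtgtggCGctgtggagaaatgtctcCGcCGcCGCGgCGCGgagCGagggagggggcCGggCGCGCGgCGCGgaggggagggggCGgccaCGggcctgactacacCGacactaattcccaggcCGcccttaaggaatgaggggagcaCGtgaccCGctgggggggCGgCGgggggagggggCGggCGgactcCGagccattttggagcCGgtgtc

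CpG density did not follow the peaks among these sequences. The SUZ12 stretch holds 34 CpG in 250 bases and had 0 bases in a control peak, whereas the EED stretch holds 11 CpG and lay whole in a peak of both lists. EZH2 holds 38, BMI1 35 and JARID2 22, and all 3 were covered over 250 bases in both lists. Over windows of 300 bases, which add 50 bases after the 5′ end, 9 of the 10 members matched the promoter table with 12 windows, and these had a median of 40.5 CpG where all 21552 windows had a median of 21. The CBX7 window, with 50 CpG and a GC content of 77.7%, lay in no peak of either list. EZH1, with 30 CpG, was likewise uncovered. A control peak began 88 bp after the 5′ end of EZH1, 248 bp after that of CBX7 and 171 bp after that of SUZ12. These starts thus lay close to control peaks, and an uncovered window does not mean a promoter without the mark. RING1, with 41 CpG, was covered over 300 bases in control and 0 after treatment, and RNF2, also with 41, over 88 bases in control and 0 after treatment. An E2F-type motif (TTTCCCGC, TTTGGCGC, TTTCGCGC or TTTGCCGC, either strand) was found in 3 of the 12 windows, against 4.13% of all windows. These were the windows of EZH1, SUZ12 and the outermost start of EZH2. Each form of the motif holds a CpG, and the member windows are richer in CpG, so the 2 shares are not on a like footing. The NRF1 motif GCATGCGC was found at EZH1 (3.73% of all windows), and neither the ETS motif CCGGAAGT (5.41%) nor the YY1 motif AAGATGGC (3.58%) was found at any matched member.

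The authors' lists of broad peaks held 245875 peaks over 224.2 Mb in control and 54061 peaks over 29.4 Mb following SNDX-50469 treatment. They ended at different strengths, with a smallest −log10 p of 2.68 in control and 3.93 after treatment, and they give no read totals, so the depth of either library is unknown and could not be separated from the treatment. Each peak carries a fold over the background of its own library, and these values and the ranks by −log10 p are given within a list. Each gene was measured in 2 parts on hg38: near, within 5 kb of its outermost annotated 5′ end, and the rest, which is the remaining gene body plus flanks of 5 kb. The kept share of a part is the percent of its control-covered positions that a treated peak also covered. Neither condition was replicated, so no difference could be set against replicate error and no test was made, and the Wilson 95% intervals of shares of peaks cover counting error only. All 8 myeloid marker genes examined had control peaks near their 5′ ends, over 4553 to 10001 bp each. So did 3 of the 7 markers of other lineages reported here: CD79A over 8792 bp, CD3E over 1065 bp and GATA1 over 324 bp. HBB, ALB, EPCAM and NEUROD1 had 0 bp there. After treatment 5 of the 8 myeloid markers had a peak near the 5′ end, as did CD79A, over 4193 bp. CD79A lay within the myeloid range, so these lengths did not separate the markers by lineage.

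All 10 members had a shorter covered length over the gene and its flanks following SNDX-50469 treatment, as did 98.2% of the 15167 genes with a control peak there. The control list held 208 peaks at the members, of which 26 (a share with an interval of 8.68% to 17.7%) shared at least 1 bp with the treated list. The treated list held 49, of which 6 were not in control, against 43.0% of the whole treated list. Of these 49, 37 lay at JARID2, where control cover was wide, so this low share is no result. JARID2 alone had 143 of the 208 control peaks and 76.1% of the members' covered length in control, 187216 of 246127 bp. Without it, 7 of 65 control peaks were shared, 10.8% (5.32 to 20.6). Over the whole control list, 20257 of 245875 peaks or 8.24% were shared. That value lay just below the interval of all members and inside the interval without JARID2. Most of the members' peaks lie side by side in 1 gene and are not independent. The intervals are thus no test, and the members' shares are set beside the background as a description only. With the control list held to the smallest −log10 p of the treated list, all 10 members were still shorter. So were 88.7% of the genes covered in either list. At a −log10 q of at least 2 in both lists, all 10 were shorter (97.7% of such genes). At 5, all 7 members with cover were shorter (99.3%). Only trimming the control list to the covered length of the treated list gave another direction at some members. The control list was trimmed to its 3632 strongest peaks, which cover as much as the whole treated list. It then ended at a −log10 p of 10.03, against 3.93 in the treated list. EZH2, SUZ12, BMI1 and CBX8 still had a shorter covered length after treatment, and EZH1 and CBX7 were uncovered in both. EED, JARID2, RING1 and RNF2 had a longer one. Each of these had 0 bp of control cover left, so any treated peak made it longer, and this is no result. Over all genes covered in either list, 26.2% were shorter in that comparison.

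**Figure D1:**
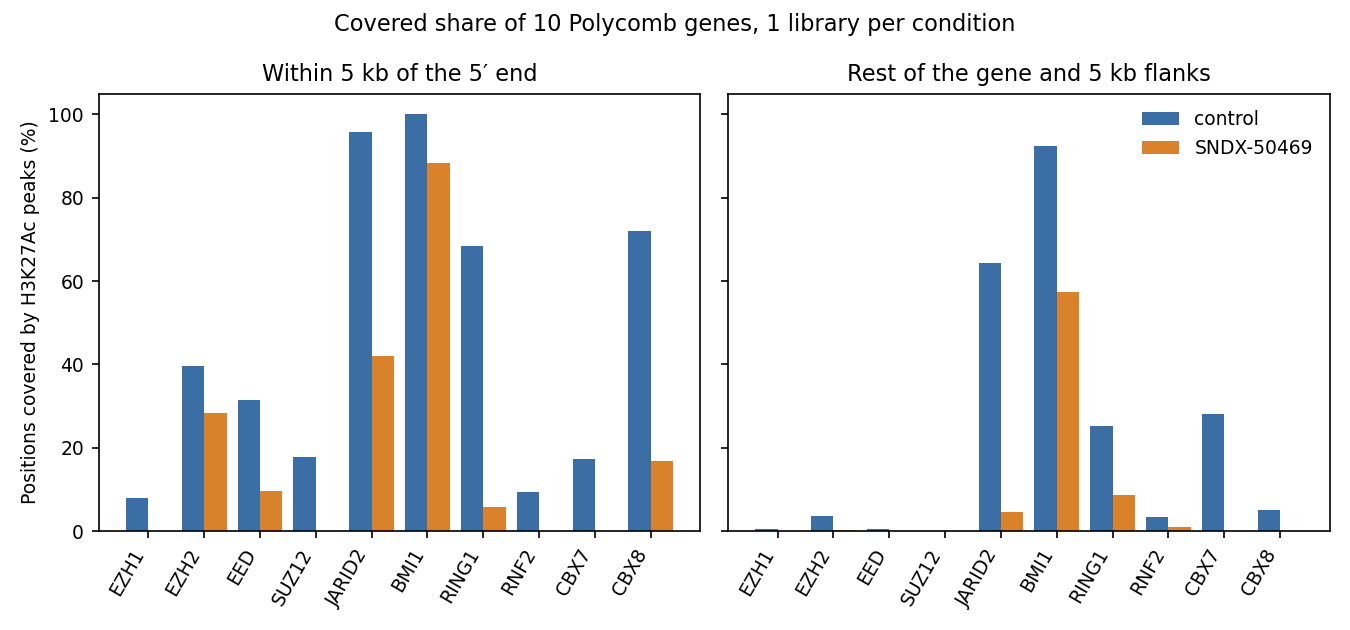
Percent of positions covered by H3K27Ac peaks in the control list (blue) and the SNDX-50469 list (orange) for each of 10 Polycomb genes, within 5 kb of the 5′ end (left) and over the rest of the gene with 5 kb flanks (right), 1 library per condition. JARID2 fell from 95.7% to 42.1% near its 5′ end and from 64.4% to 4.67% over the rest, while BMI1 went from 100% to 88.4% and from 92.4% to 57.4%.

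Among the core subunits of PRC2, EZH2 and EED kept a peak over the start site, and EZH1 and SUZ12 had no peak in the treated list. EZH2 (chr7:148807383-148884291, minus strand) was covered over 3949 bp near its 5′ end in control and 2841 bp after treatment, all of it shared, a kept share of 71.9%. Its main control peak ran from 1241 bp upstream to 2010 bp downstream of the 5′ end, with a fold of 7.52 and rank 1532 in its list. The treated peak ran from 1168 bp upstream to 1672 bp downstream, with a fold of 5.77 and rank 819. So the peak at EZH2 was 2841 bp wide after treatment where it had been 3252 bp, and it stood among the strongest of both lists. A second annotated start of EZH2, 806 bp downstream, lay in the same peak in both lists. Of the 12 control peaks over the rest of EZH2, which covered 2831 bp, none was kept, and the 147 bp covered there after treatment were not covered in control.

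EED (chr11:86244753-86287615, plus strand) was covered over 3155 bp near its 5′ end in control and 956 bp after treatment, of which 950 bp were shared, a kept share of 30.1%. The control peak over its start was 2287 bp wide, with a fold of 5.04 and rank 8188, and reached 1629 bp into the gene. The treated peak was 956 bp wide, with a fold of 4.17 and rank 7342, and reached 292 bp into the gene. Upstream both peaks ended at nearly the same place, 657 and 663 bp before the 5′ end, so the length lost by this peak lay on the downstream side. The rest of EED was covered over 259 bp in control and 0 bp after treatment.

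SUZ12 (chr17:31937007-32001038, plus strand) was covered over 1766 bp near its 5′ end in control and 0 bp after treatment. Its strongest control peak was narrow, 310 bp from 171 to 480 bp downstream of the 5′ end, with a fold of 6.49 and rank 3570, a better rank than that of the EED peak. The nearest treated peak lay 35293 bp away. A partial copy of this gene, the pseudogene SUZ12P1, lies on the same chromosome, and whether reads were shared between the copies cannot be told from the lists. EZH1 (chr17:42700275-42745040, minus strand) was covered over 791 bp near its 5′ end in control, by a single peak with a fold of 3.44 and rank 42848, and over 0 bp after treatment. Its nearest treated peak lay 64637 bp away. The rest of SUZ12 was covered over 78 bp and that of EZH1 over 185 bp in control, and neither was covered after treatment.

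**Figure D2:**
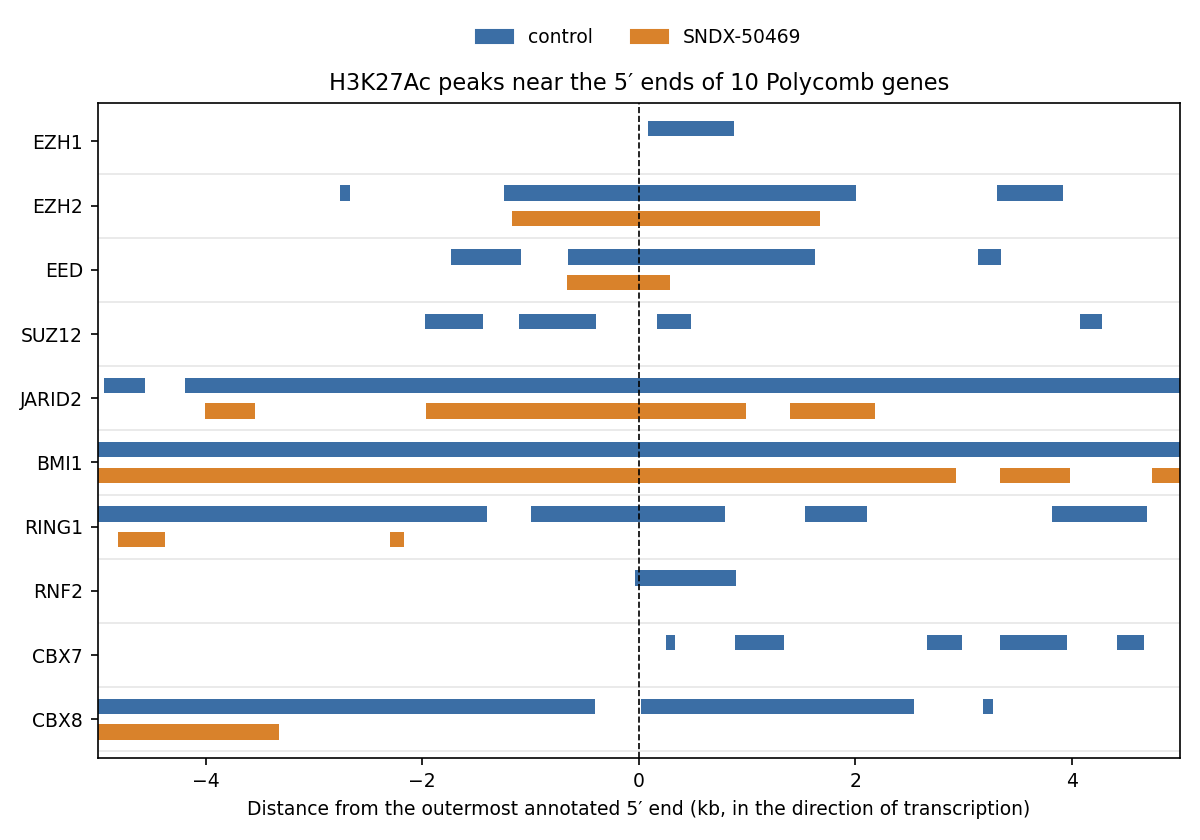
H3K27Ac peaks within 5 kb of the outermost annotated 5′ end (dashed line at 0, transcription to the right) of 10 Polycomb genes, with control peaks in blue above SNDX-50469 peaks in orange. Treated peaks lay over the 5′ ends of EZH2, EED, JARID2 and BMI1, upstream only at RING1 and CBX8, and nowhere in the window at EZH1, SUZ12, RNF2 and CBX7.

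JARID2 (chr6:15246069-15522042, plus strand) differed from the core subunits in how much of the gene was covered. In control, 177641 bp or 64.4% of the part beyond the 5′ end lay in peaks, against 3353 bp or 1.47% summed over the 4 core subunits. Only 123 of 3315 genes of at least 100 kb, 3.71%, had 50% or more of that part covered in control, and 64 of them, JARID2 included, reached its value, while the median of these long genes was 2.99%. After treatment 12889 bp or 4.67% of the rest of JARID2 was covered, with 11434 bp shared, a kept share of 6.44%. A kept share under 10% over the rest was found at 8 of the 10 members, 7 of them at 0%. It was found at 85.6% of all genes with control peaks there and at 89.6% of those of at least 100 kb, so that the loss over the body of JARID2 was not set apart by its share, and its length in control was.

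The cover over JARID2 was made of many weak peaks. Of its 143 control peaks, 25 reached a −log10 p of 3.93, the smallest in the treated list. Held to that value, the control peaks still covered 75848 bp of the rest of the gene, of which 8928 bp were kept, a share of 11.8%. The median width was 687 bp for the 143 control peaks and 338 bp for the 37 treated peaks. The 6 control peaks of at least 5 kb summed to 51980 bp, and all 6 shared positions with the treated list, whereas 13 of the 137 narrower peaks did. The widest treated peak had 2952 bp. The 4 treated peaks not in control were narrow, at most 362 bp and 733 bp in all. They made up 10.8% of the treated peaks at JARID2, against 49.2% on chromosome 6 and 43.0% of the whole list. Control peaks covered 65.5% of JARID2 and its flanks, so a treated peak there could hardly miss them, and the low share is no result.

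Near the 5′ end of JARID2, 9575 bp were covered in control and 4210 bp after treatment, all shared, a kept share of 44.0%. This share depended on the width of the window, with 88.9% kept within 2 kb of the 5′ end and 26.8% within 10 kb, and it was 0% with both lists held to a −log10 q of 5. One control peak of 13206 bp ran from 4193 bp upstream to 9012 bp into the gene, with a fold of 5.64 and rank 5129. In its place the treated list held 5 peaks, 3 of them within 5 kb of the 5′ end. The widest, of 2952 bp, ran from 1964 bp upstream to 987 bp downstream over the 5′ end, with a fold of 4.64 and rank 2927. A peak of 790 bp from 1395 to 2184 bp downstream had a fold of 4.72 and rank 2674, and a peak of 468 bp lay 4010 to 3543 bp upstream. The 300-base window of a second annotated start, 2786 bp downstream, was covered whole in control and over 0 bases after treatment, so the second start lay outside the remaining cover.

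Along the body of JARID2 the kept positions were unevenly spread. The stretch from 50 to 75 kb after the 5′ end kept 4519 of 18976 bp, 23.8%, all of it within a control peak of 10853 bp that began 49371 bp into the gene and shared 4532 bp with the treated list. The stretch from 100 to 125 kb kept 2352 of 20788 bp, 11.3%, with 1446 bp of it in a control peak of 8286 bp that began 115972 bp into the gene. Between these, 186 of 18432 bp were kept from 75 to 100 kb, 1.01%. From 25 to 50 kb, 13 of 14455 bp were kept. From 225 to 250 kb, 498 bp were covered after treatment and none of them had been covered in control.

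**Figure D3:**
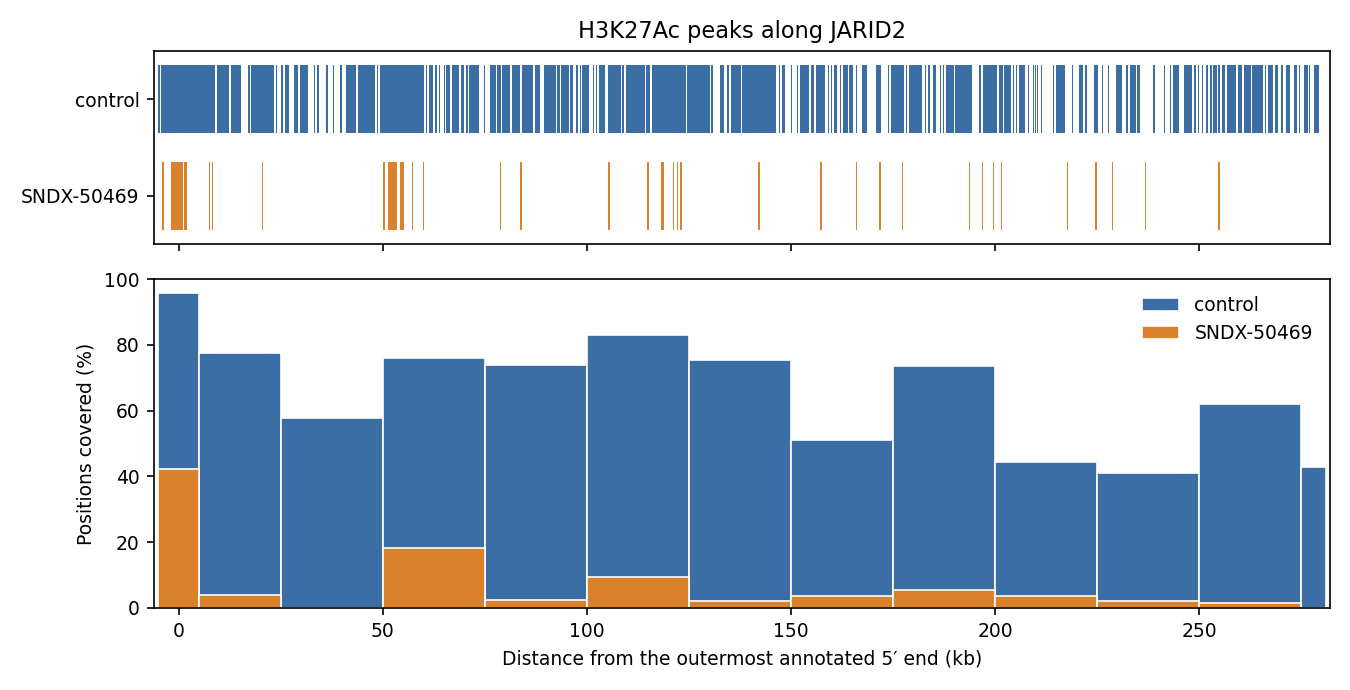
Peaks along JARID2 by distance from its 5′ end (top, control in blue and SNDX-50469 in orange) and the percent of positions covered in each list in stretches of mostly 25 kb (bottom, both bars drawn from 0). Control cover was 95.7% around the 5′ end and 57.8% to 83.2% in the stretches from 5 to 150 kb, and treated cover was 42.1% around the 5′ end and 18.1% at most elsewhere, from 50 to 75 kb.

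Near the 5′ end, JARID2 and the core subunits were not told apart. The core subunits together were covered over 9661 bp in control and kept 3791 bp, 39.2%, so that JARID2 kept 4.73 percentage points more. The sign of this difference was not stable. It was 44.5 points within 2 kb of the 5′ end and −11.7 points within 10 kb, it was −4.05 points without SUZ12 and 27.3 points without EZH2, and it was −13.1 points with the control list held to the smallest −log10 p of the treated list. The 4 core subunits themselves spread from 0% to 71.9%, a wider range than their sum shows. Over the rest, JARID2 kept 6.44% and the core subunits kept 0 of 3353 bp. The core subunits kept 0% there in every alternative but that with flanks of 20 kb, at 4.11%, so the difference could hardly turn negative, and their share rests on little cover. It ran from 1.93 to 11.8 points.

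Of the PRC1 members, BMI1 kept most of its cover near the 5′ end. BMI1 (chr10:22321099-22331706, plus strand) was covered over 10001 bp near its 5′ end in control, which is the whole window, and 8836 bp after treatment, a kept share of 88.4%. This share was 100% within 2 kb of the 5′ end and 61.3% within 10 kb. It was 0% with both lists held to a −log10 q of 5. Over the rest BMI1 was covered over 9804 bp and 6085 bp, all shared, a kept share of 62.1%. Of this, 5000 bp lay in the downstream flank, and without the flanks the rest kept 1085 of 4804 bp, 22.6%. The flank was covered by the start of a separate pair of peaks, a control peak of 14671 bp from 10284 bp after the 5′ end, with a fold of 8.93 and rank 521, and a treated peak of 10262 bp from 10487 bp after it, with a fold of 6.63 and rank 361. Over the 5′ end, a single control peak of 24079 bp, from 14598 bp upstream to 9480 bp downstream, had a fold of 6.74 and rank 2616. The treated peak over the 5′ end, of 8852 bp, ran from 5916 bp upstream to 2935 bp downstream, with a fold of 5.28 and rank 1285. Both of these peaks also span the 5′ end of COMMD3, 4711 bp upstream on the same strand, and of the readthrough gene COMMD3-BMI1 that starts with it, so the cover cannot be given to BMI1 alone.

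At the other PRC1 members no treated peak lay over the 5′ end, which had been in a control peak at RING1 and RNF2 and in none at CBX7 and CBX8. RING1 (chr6:33208500-33212716, plus strand) was covered over 6837 bp near its 5′ end in control and 567 bp after treatment, all shared, a kept share of 8.29%. The control peak over its own start, 1790 bp wide with a fold of 5.99 and rank 4454, shared 0 bp with the treated list. The kept positions lay 4816 to 2173 bp upstream, on both sides of the 5′ end of HSD17B8, which lies 3845 bp before that of RING1. RNF2 (chr1:185045558-185102603, plus strand) was covered near its 5′ end by 1 control peak of 936 bp, with a fold of 3.42 and rank 44044, and by none after treatment. Over the gene and its 5 kb flanks, the nearest treated peak was 24281 bp away, a peak of 486 bp within the gene that had not been covered in control. Peaks beyond the flanks were not searched for RNF2.

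CBX7 and CBX8 differed in where their control cover lay. CBX8 (chr17:79792132-79797077, minus strand) was covered over 7198 bp near its 5′ end in control and 1674 bp after treatment, a kept share of 23.3%. Its main control peak lay upstream, from 7713 to 406 bp before the 5′ end, with a fold of 6.59 and rank 2739. The treated peak lay inside that region, from 5566 to 3327 bp before the 5′ end, with rank 7773. A second control peak of 2519 bp, from 21 to 2539 bp into the gene, had no treated counterpart. CBX7 (chr22:39130772-39152680, minus strand) had 14 control peaks, 1722 bp near its 5′ end and 6168 bp over the rest, and none after treatment. Its strongest control peak near the 5′ end had 84 bp, a fold of 3.71 and rank 28232. The nearest treated peak lay 166398 bp away, the greatest such distance among the members.

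Summed over the 5 PRC1 members the kept share was 41.5% near the 5′ end and 33.4% over the rest. BMI1 carried both values, which were 13.4% and 3.40% without it.

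At least 1 bp near the 5′ end was kept at 6 of the 10 members, against 50.8% of the 12962 genes with a control peak there. The 5′ end itself lay in a control peak at 6 members, against 39.3% of all genes, and at 4 of these 6 it also lay in a treated peak, against 40.4%. With so few genes, these counts were close to the background. Near the members' 5′ ends, 8 control peaks at 7 genes had a −log10 q of 5 or more, and 6 of the 8 shared positions with the treated list, against 83.8% of all such peaks near a 5′ end. With both lists held to that strength, EZH2 was the only one of 7 members with control cover near the 5′ end that kept any of it, against 13.5% of all such genes. With the control list trimmed to the covered length of the treated list, 3 of 4 members (EZH2, BMI1 and CBX8, not SUZ12) kept some, against 92.8%.

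Over all genes the median kept share was higher the more of the 5′ end was covered in control, and most members lay where genes of like cover lay. Of the 2411 genes with up to 1 kb covered, the group of EZH1 and RNF2, 95.8% kept none. Of the 1884 genes with 1 to 2 kb covered, the group of SUZ12 and CBX7, 72.8% kept none. RING1 and CBX8 lay between the quartiles of their groups, with medians of 15.0% and 18.6%, and JARID2, at 44.0%, lay between the quartiles of 11.7% and 52.4% of its group. EZH2 and BMI1 stood higher. In the group with 3 to 4 kb covered, with a median of 8.40%, 14 of 1483 genes or 0.944% reached the kept share of EZH2, and 365 reached that of EED. In the group with 9 to 10 kb covered, 20 of 675 genes or 2.96% reached that of BMI1. These positions are a description of 1 pair of libraries at the 5 kb window. Within 10 kb of the 5′ end the kept share of BMI1 was 61.3%.

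**Figure D4:**
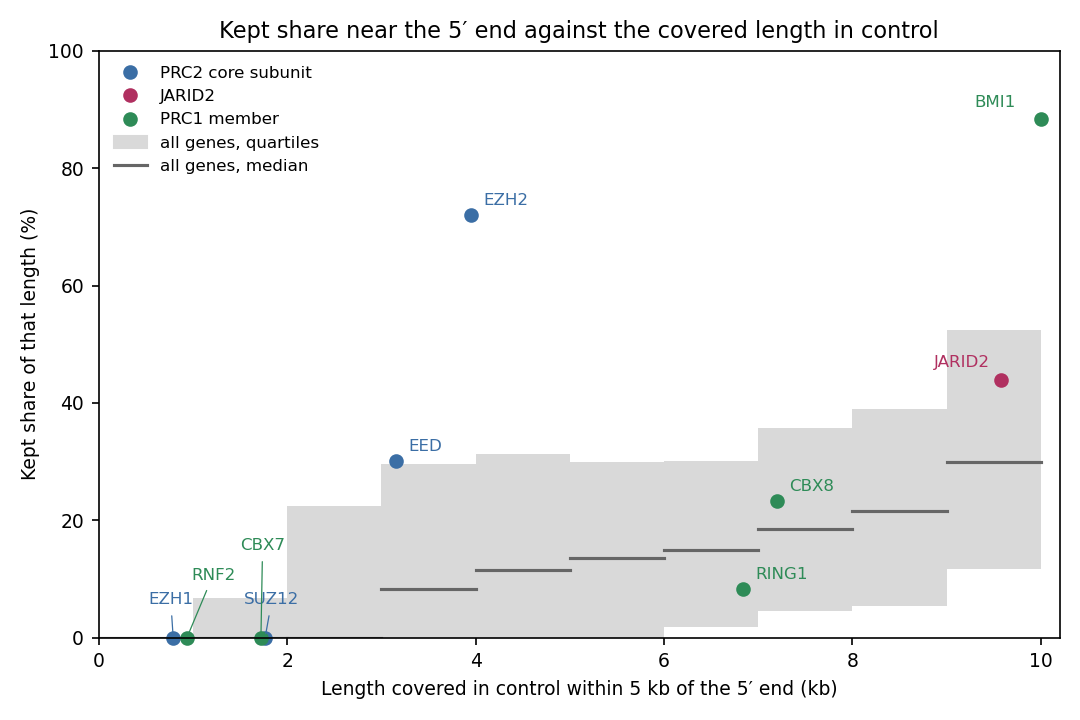
Kept share near the 5′ end (vertical, percent) against the length covered in control within 5 kb of it (horizontal, kb) for 10 Polycomb genes, coloured by complex; grey boxes and lines are the quartiles and medians of all protein-coding genes in steps of 1 kb. EZH2 at 71.9% and BMI1 at 88.4% lie above the upper quartiles of their steps, EED at 30.1% just above that of 29.5%, and JARID2 at 44.0% between the quartiles.

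When neighbouring peaks were stitched at the default gap of ROSE and regions were ranked by fold times length within each list, JARID2 lay in the region of rank 3 of 24668 in control. That region held 604 peaks over 1439.5 kb, far more than the gene. BMI1 lay in a region of 47.8 kb with rank 697, and these were the 2 members above the slope-1 point of the ranked curve, which 892 regions passed. CBX8 came next with rank 1101. In the treated list 372 of 18541 regions passed that point, among them the 31.4 kb region of BMI1 with rank 90. The best-ranked of the treated regions at JARID2 had 24.8 kb and rank 1166. Thus BMI1 lay above the point in both lists and JARID2 in control only. EZH1, SUZ12 and CBX7 overlapped no region of the treated list. The share of all genes in regions above the point is not given here, so these places are no result about the members as a set. The ranking used the whole lists, which end at different strengths, and JARID2 had no cover in the trimmed control list.

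Among 36 other genes of the Polycomb system, 34 had a control peak over the gene or its flanks. All 34 had a shorter covered length after treatment, as did 98.2% of all genes with a control peak there. Near the 5′ end, 21 of the 30 with control cover kept at least 1 bp, 70.0%, against 50.8% of all genes. Their median kept share was 24.5%, where the 10 members had a median of 15.8% and all genes 1.82%. These genes were not matched to all genes by control cover. Over the rest, 23 of 31 kept under 10%, 21 of them 0%, against 85.6% of all genes under 10%. The longest control covers were those of KDM2B, which targets a PRC1 variant to CpG islands, with 90573 bp in control and 12871 bp after treatment, PHC3, a PRC1 subunit, with 55755 and 11002 bp, and BCOR, a partner of PRC1, with 51971 and 19234 bp. BCOR kept 36.3% of its cover, more than JARID2 with 8.36% over the same span. The highest kept shares among genes with at least 5 kb covered in control were those of KDM6B, an H3K27 demethylase, at 41.2%, RBBP4, a histone-binding partner of PRC2, at 38.0%, and BCOR.

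The 5 genes most like JARID2 in length and in the covered fractions of both lists were FRY, SNTB1, CDK6, ZNF521 and TRERF1. Since those fractions nearly fix the kept share, likeness in it is no result. Near the 5′ end the kept shares were 53.2%, 55.9%, 31.9%, 34.3% and 45.9% in that order. Over the rest they were 27.1% at FRY, 20.2% at SNTB1, 14.2% at TRERF1, 1.25% at CDK6 and 1.34% at ZNF521. The chromosome of JARID2 and RING1 had a treated covered length of 14.2% of control, the highest among the 7 chromosomes that carry the members (7.51% to 9.71% for the others), and the part of this in the values of both genes was not tested.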

How the data were processed

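H3K27Ac was measured in 2 libraries of MOLM13 cells, 1 per condition, grouped by their titles. The submitters' processing notes name Trim Galore 0.6.5, Bowtie2 2.3.4.2, Picard 2.9.0, MACS2 2.1.2 and GRCh38, while the supplementary methods name TopHat2 and hg38; the calling options, and whether an input entered the calling, are not given in the sources used here. For each library the authors deposited a separate list of broad peaks. In the deposited lists each peak has a ratio (fold over background), a −log10 p, a −log10 q and a score of 10 times the −log10 q, which was not used.

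From these lists, covered and shared lengths were computed with Python 3.11.15, numpy 2.4.6 and pandas 2.3.3, at an overlap of at least 1 bp. The interval code was checked against a base-by-base count. Genes were the 20037 protein-coding genes of GRCh38.p14, of which 19121 had a strand, taken by symbol and chromosome from a GENCODE annotation lifted to GRCh37, whose coordinates were not used. Exons and introns of hg38 were not used here.

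The members, the lists of other Polycomb genes and of markers, and the rules were chosen with earlier results of these data known. The text names the 10 members, the neighbours whose 5′ ends lie in a member's window, of the 36 other Polycomb genes the 3 with the longest control cover and the 3 with the highest kept share among those with at least 5 kb, and the 5 genes closest to JARID2 by Euclidean distance over log10 length and 4 covered fractions. Alternatives were other widths, flanks, peak strengths, list lengths, joins, overlaps and 5′ ends, and leaving out each gene of a group. One marker of the other lineages is not reported here.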

Additional observations from a re-analysis of the deposited data

How the results depend on the processing

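The 4.73 points by which JARID2 kept more than the PRC2 core subunits near the 5′ end reversed to −11.7 within 10 kb of the 5′ end, −13.1 with the control list at the smallest −log10 p of the treated list, −13.1 when both lists were held to a −log10 q of 2, −48.6 when held to 5, and −4.17 over all annotated 5′ ends, and it ran from −4.05 without SUZ12 to 27.3 without EZH2. It kept its sign within 2 kb (44.5) and with peaks joined within 1 kb (11.6). Members with a shorter covered length stayed at 10 at the common −log10 p and at a −log10 q of 2. They were 7 of 7 with control cover at a −log10 q of 5. With the control list trimmed to the treated covered length they were 4, the only members with control cover left. Members with at least 1 bp kept near the 5′ end went from 6 to 3 there and to 1 at a −log10 q of 5. The share of control peaks kept fell to 2.40% when 50% of a peak had to be shared. With the trimmed list JARID2 had no control cover left, and at a −log10 q of 5 the core subunits had none over the rest, so those differences have no value. The PRC1 sum over the rest was 9.46% without flanks. No paired analysis was possible because neither condition was replicated. Unknown depth and the unequal strength at which the lists end limit every value, and peaks that were not called may still hold signal. The causes of the changes were not tested.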
